A study of Mus musculus with 9 samples.

Results

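Slc25a3, Acsl1 and Slc30a9 are genes whose products work at or in mitochondria, and their transcripts were followed through 9 testis libraries. They are 3 of the 50485 rows of the count table, the loci MSTRG.2635 (Slc25a3), MSTRG.21816 (Acsl1) and MSTRG.16748 (Slc30a9), found by the numbers that the study's lists of differentially expressed genes pair with these names. These lists were made from the same libraries. Slc25a3 and Acsl1 were chosen by their difference between Prm2+/Δc and WT, and Slc30a9 by its difference between Prm2-/Δc and WT, so those contrasts are given as a description without a test.

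The libraries came from WT, Prm2+/Δc and Prm2-/Δc males, with 3 mice in each group. Protamine 2 packs sperm DNA and is made as a precursor whose N-terminal part, cP2, is cut off. The Δc allele, made with Cas9 in the egg, lacks the cP2 part. Prm2+/Δc males (labelled het) carry it beside a WT allele. The third group is labelled hom, and the study's lists pair this label with Prm2-/Δc, in which the second allele is a Prm2 deletion from an earlier line. Founders were hybrids of C57Bl/6 and DBA2, and at least 3 generations of crossing to C57Bl/6J followed. The labels give C57BL/6 as the background of all 9 mice, and the study used males of 10 to 13 weeks. The edits are present in every cell, and the RNA was that of a whole testis freed of its capsule, so a lower level in a cell type and a smaller number of such cells cannot be told apart.

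Slc25a3 encodes the carrier that brings phosphate from the cytosol into the mitochondrial matrix, where ATP synthase joins it to ADP. Acsl1 encodes a long-chain acyl-CoA synthetase, which couples fatty acids to coenzyme A and so makes them available for oxidation in mitochondria or for building lipids. Slc30a9, also called ZnT9, encodes a zinc transporter of mitochondria. In the testis, ATP from mitochondria is used through meiosis and sperm formation, and long-chain fatty acids are both a fuel and a membrane constituent of germ cells.

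The genes lie on 3 chromosomes. In GENCODE M21 on GRCm38, Slc25a3 (ENSMUSG00000061904) spans chr10:91116574-91124059 on the minus strand with 8 transcripts, and a snoRNA gene, Gm24119, lies inside it on the same strand. Acsl1 (ENSMUSG00000018796) spans chr8:46471037-46536051 on the plus strand with 11 transcripts, and the unclassified gene Gm45244 overlaps its first part on the minus strand. Slc30a9 (ENSMUSG00000029221) spans chr5:67306955-67358443 on the plus strand with 8 transcripts, and no other annotated gene overlaps it. The libraries hold tags from the 3′ ends of mRNAs. The annotated transcripts of Slc25a3, Acsl1 and Slc30a9 end at 8, 11 and 8 different positions, and the table does not say which ends its loci cover. The table holds no second row under the Ensembl identifiers of these genes.

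Slc25a3 and Acsl1 were both low in the 3 Prm2+/Δc libraries, by which they were chosen. Slc30a9 was low in Prm2+/Δc libraries 1 and 3 but not in library 2. The bases before the annotated starts are shown as a description only, since the choice fixed what Slc25a3 and Acsl1 share there. They are from RefSeq (GRCm38.p6), 5′ to 3′ on the strand of the gene, at chr10:91124060-91124217 (minus), chr8:46470787-46471036 (plus) and chr5:67306705-67306954 (plus). Capitals mark TGACG, the core of the cAMP response element, in Slc25a3 and the GC box GGGCGG in the other two, each on either strand.
Slc25a3: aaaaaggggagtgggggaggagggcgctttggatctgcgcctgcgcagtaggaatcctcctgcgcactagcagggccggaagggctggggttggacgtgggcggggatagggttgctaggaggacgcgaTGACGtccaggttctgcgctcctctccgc
Acsl1: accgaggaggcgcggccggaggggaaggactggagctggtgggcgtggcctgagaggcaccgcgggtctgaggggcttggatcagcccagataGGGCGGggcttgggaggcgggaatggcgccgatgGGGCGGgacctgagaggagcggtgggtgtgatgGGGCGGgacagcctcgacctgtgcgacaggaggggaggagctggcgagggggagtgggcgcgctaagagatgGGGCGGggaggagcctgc
Slc30a9: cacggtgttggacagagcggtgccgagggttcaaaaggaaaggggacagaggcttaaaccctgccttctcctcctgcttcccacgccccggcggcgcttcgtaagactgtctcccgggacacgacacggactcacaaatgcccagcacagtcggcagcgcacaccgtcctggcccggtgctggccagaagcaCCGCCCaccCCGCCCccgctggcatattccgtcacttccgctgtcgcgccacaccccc

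In the 250 bases before its RefSeq start, Slc25a3 had 4 matches to TGACG, of which 1 is in the bases printed and the others lie in 92 bases that GENCODE places inside a transcript. TGACG was found at least once in 17.8% of 32851 mouse promoters of that length, and 4 or more times in 0.137%. Slc30a9 had 1 match, and Acsl1 had 0. The GC box was found 4 times in Acsl1, 2 times in Slc30a9 and 1 time in Slc25a3. Of the promoters, 32.7% held it at least once, 16.7% held it 2 or more times and 4.09% held it 4 or more times. The NRF1 site, which is bound by a regulator of many nuclear genes for mitochondrial proteins, had 1 match in Slc25a3, overlapping neither of these motifs, and none in the other two windows; 3.74% of promoters held it. The full element TGACGTCA, which contains TGACG and was present in 1.55% of promoters, was in none of the 3 windows. RefSeq gives Acsl1 a second start inside the gene, and the window before it (chr8:46490716-46490965) held none of these motifs and had a GC content of 48.4%. Over the full 250 bases of the other windows, only part of which is printed for Slc25a3, GC content was 66.4%, 72% and 66% for Slc25a3, Acsl1 and Slc30a9. The median over the promoters was 52.4%. No promoter activity was measured.

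Depth ran from 9070746 to 20320362 counts per library, and each value of the 3 genes rests on at least 101 counts. Counts were divided by size factors to give normalized counts, the scale of the levels below. Rows with an Ensembl identifier hold 0.391% of the counts. The rest are in loci numbered by StringTie, and names were at hand for 150 of these loci, each on the study's lists. The row of Prm2 is not named there, so the edited gene itself was not analysed here. Over 17815 loci tested in Prm2+/Δc against WT the median log2 fold change was close to 0, and in Prm2-/Δc against WT, over 17637 loci, it was 0.01. Of the tissue markers, 5 of 16 germ cell genes had a named row, and these 5 had counts in all libraries. The Ensembl rows of Amh, a Sertoli cell gene, and of 5 of 5 epididymal genes, Adam7, Crisp1, Defb12, Lcn5 and Lcn8, are listed at 0 in every library, which does not say whether an unnamed locus holds their reads.

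Slc25a3 was low in each Prm2+/Δc testis and at the WT level in each Prm2-/Δc testis. The WT libraries 1, 2 and 3 had 1628, 1563 and 1422 normalized counts. Those of Prm2+/Δc had 114, 124 and 94.5. Those of Prm2-/Δc had 1593, 1423 and 1788. No Prm2+/Δc library came near the other six, while the WT and Prm2-/Δc ranges overlapped. The means were 1538 ± 105, 111 ± 15.2 and 1601 ± 183 (SD, n = 3), which places Prm2+/Δc at 7.22% of WT.

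In Prm2+/Δc against WT, the fitted log2 fold change of Slc25a3 was -3.80 ± 0.15 (SE), a 13.9-fold lower level. Directly between both mutant genotypes, Prm2-/Δc was higher by 3.85 ± 0.18 on the log2 scale. Both contrasts hold the libraries by which the gene was selected, so no test is given. The contrast that the choice did not use was Prm2-/Δc against WT. There the log2 fold change was 0.06 ± 0.14, with an adjusted p of 0.99993 in edgeR's quasi-likelihood test. The difference in means was 63.5 normalized counts, or 4.13% of WT, with p = 0.6 in a two-sided exact permutation test (the smallest p that 3 against 3 mice allow is 0.1). The sign of this small difference turned to -0.032 on the log2 scale without Prm2-/Δc library 3. The WT libraries also served the contrast that selected the gene.

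**Figure D1:**
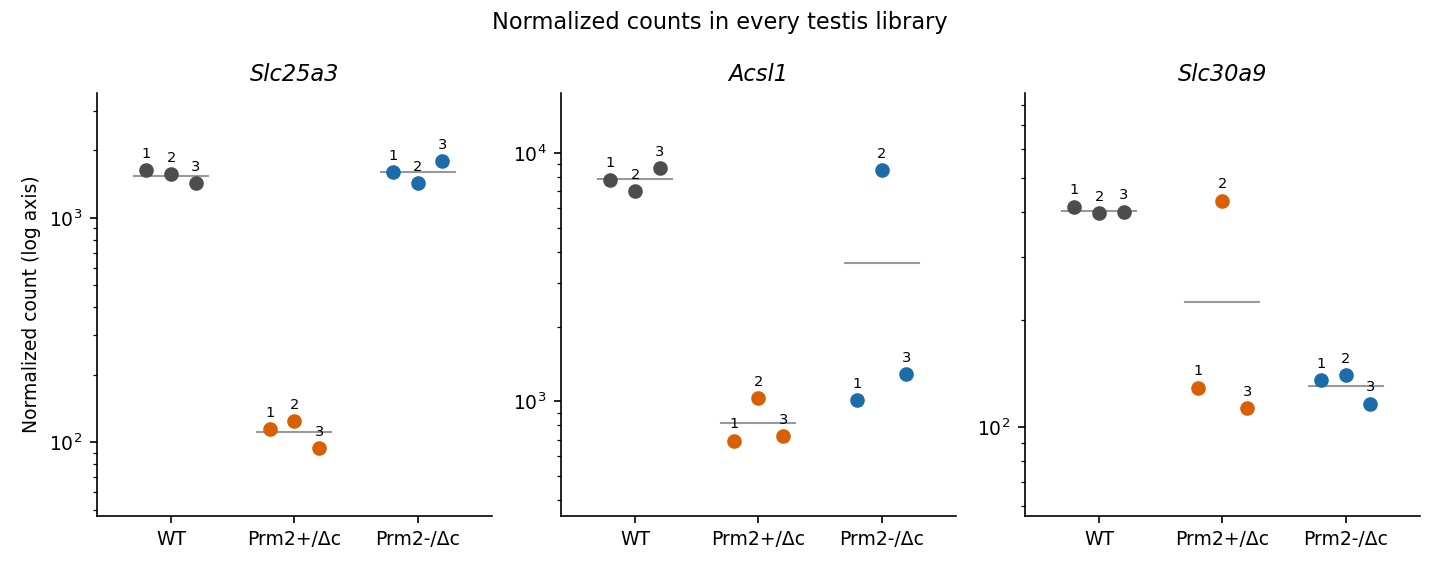
Normalized counts (log axis) of Slc25a3, Acsl1 and Slc30a9 in each of 9 testis libraries, numbered by replicate, with grey lines at the group means (n = 3). Slc25a3 is low in the 3 Prm2+/Δc libraries alone, Acsl1 is at the WT level in Prm2-/Δc library 2 (8507) and Slc30a9 in Prm2+/Δc library 2 (430).

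Acsl1 was low in each Prm2+/Δc testis and in 2 of 3 Prm2-/Δc testes. The WT libraries had 7806, 7020 and 8666 normalized counts, and the Prm2+/Δc libraries had 693, 1028 and 723. Prm2-/Δc library 1 had 1008 and library 3 had 1286, whereas library 2 had 8507. Library 2 thus lay inside the WT range, library 1 lay inside the Prm2+/Δc range, and library 3 lay just above the latter. Group means were 7831 ± 823 for WT, 815 ± 185 for Prm2+/Δc and 3600 ± 4251 for Prm2-/Δc (SD, n = 3), and no Prm2-/Δc testis was near the mean of its group.

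Against WT, the fitted log2 fold change of Acsl1 in Prm2+/Δc was -3.27 ± 0.19 (SE), a 9.63-fold lower level, given as a description. In Prm2-/Δc, where the choice of the gene used only the WT libraries, it was -1.12 ± 0.80, with an adjusted p of 0.99993 in edgeR's test. The exact two-sided permutation test gave p = 0.3. Library 2 decides this value. Without it the log2 fold change was -2.76 ± 0.20, and the mean of the remaining libraries was 14.7% of WT. The fit without it passed the threshold (adjusted p of 0.0381 in edgeR's test), but a library singled out by its own value makes this no test of the genotype. Prm2-/Δc lay above Prm2+/Δc by 2.14 ± 0.85 on the log2 scale with all libraries and by 0.49 ± 0.24 without library 2.

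Slc30a9 was low in each Prm2-/Δc testis and in 2 of 3 Prm2+/Δc testes. The WT libraries had 414, 396 and 401 normalized counts. The Prm2-/Δc libraries had 135, 140 and 116. Prm2+/Δc library 1 had 129 and library 3 had 113, whereas library 2 had 430, the highest value of all 9. The Prm2-/Δc libraries were therefore all below WT, and Prm2+/Δc was split between both ranges. Means were 404 ± 9.35 for WT, 224 ± 179 for Prm2+/Δc and 130 ± 12.4 for Prm2-/Δc (SD, n = 3), so Prm2-/Δc stood at 32.3% of WT.

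The log2 fold change of Slc30a9 in Prm2-/Δc against WT was -1.63 ± 0.16 (SE), a 3.09-fold lower level, given as a description since this contrast chose the gene. In Prm2+/Δc against WT, where the choice of the gene used only the WT libraries, it was -0.85 ± 0.53. The adjusted p was 0.99914 in edgeR's test. The exact two-sided permutation test gave p = 0.4. Without Prm2+/Δc library 2 the log2 fold change was -1.74 ± 0.17, and the mean of the other two was 29.9% of WT. Prm2-/Δc lay below Prm2+/Δc by a log2 difference of -0.79 ± 0.54, which became 0.11 ± 0.22 without that library.

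**Figure D2:**
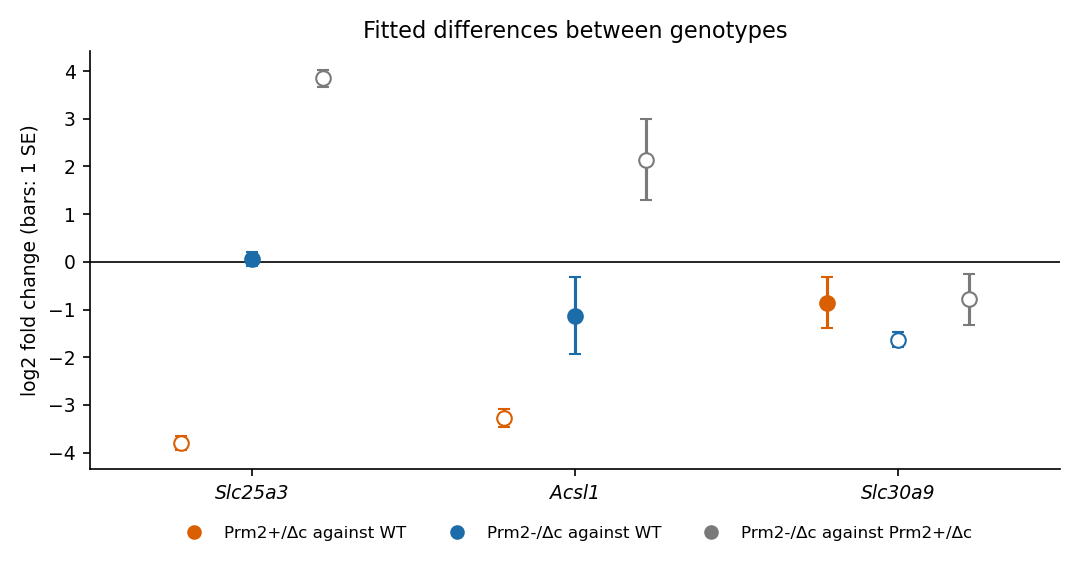
Fitted log2 fold changes with 1 SE for the 3 genes in each pair of genotypes (3 libraries a group). Open points are contrasts whose libraries chose the gene and are descriptions, filled points are the tested contrasts, and the bars are long where 1 library stands apart (Acsl1 in Prm2-/Δc, 0.80; Slc30a9 in Prm2+/Δc, 0.53).

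Counts of calls put these genes among the other loci. Among the 8 loci that edgeR called lower in Prm2+/Δc against WT (0.0449% of 17815, with calls made at an adjusted p below 0.05 and a fold beyond 1 on the log2 scale) were Slc25a3 and Acsl1, by whose values in that contrast they were chosen. In Prm2-/Δc against WT, 1 locus was called in either direction (0.00567% of 17637), and it was none of the 3 genes. These counts depend on the tool, since DESeq2 called 37 loci higher and 46 lower in Prm2+/Δc, and 24 higher and 45 lower in Prm2-/Δc. Slc25a3 and Acsl1 were 2 of 822 loci with all 3 Prm2+/Δc libraries below all 3 WT libraries (4.61% of those tested). Slc30a9 was 1 of 762 loci with this arrangement in Prm2-/Δc (4.32%).

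In each gene the 9 libraries fell into a high and a low range with nothing between. The step between the highest low value and the lowest high value was 11.4-fold for Slc25a3, 5.46-fold for Acsl1 and 2.84-fold for Slc30a9. The next largest step between neighbouring libraries was 1.21-fold, 1.39-fold and 1.11-fold in the same order. For Slc25a3 the low range held 3 libraries, and for Acsl1 and Slc30a9 it held 5 each. Of 12542 loci with a mean of at least 50 normalized counts, 603 (4.81%) had their largest step over 2-fold with at least 3 libraries on each side, whatever the labels. The 3 genes were chosen for a difference between a mutant group and WT in these libraries. A step between those groups was thus largely set by the choice, and the share over all loci is no test of it.

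Every WT library was in the high range of each gene, and each gene was chosen for a difference from WT. Prm2+/Δc libraries 1 and 3 and Prm2-/Δc libraries 1 and 3 had the same state as their group partner in all 3 genes. Prm2+/Δc library 2 was low for Slc25a3 and Acsl1 and high for Slc30a9. Prm2-/Δc library 2 was high for Slc25a3 and Acsl1 and low for Slc30a9. Within WT the coefficient of variation was 6.83% for Slc25a3, 10.5% for Acsl1 and 2.31% for Slc30a9, beside a median of 16.4% over the 12542 loci. In Prm2+/Δc it was 13.7%, 22.7% and 79.8% in the same order, beside a median of 12.6%. In Prm2-/Δc it was 11.4%, 118% and 9.55%, beside 20.4%. The lists that chose the genes were made from these libraries and favour a small spread within the groups compared. A low value in those groups is therefore no finding about the genes.

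The rows numbered next to each gene were examined because reads of 1 gene can be split between loci. Of the 3 loci numbered below and 3 above Slc25a3, loci 2633, 2636 and 2638 had 0 counts. Locus 2637 had 163 to 274 normalized counts and locus 2634 had 43.5 to 81.5, without a step that matched Slc25a3. Around Acsl1, locus 21814 had 577 to 890 and locus 21815 had 71.9 to 120 normalized counts. Locus 21818 varied more, from 68.9 to 470, but was low in WT library 3, Prm2+/Δc library 3 and Prm2-/Δc library 1, which is not the order of Acsl1. Next to Slc30a9, locus 16747 reached 233 in Prm2+/Δc library 1 and was between 13.9 and 93.4 in the others.

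The other loci between 16745 and 16751 had at most 150 normalized counts in a library. None of the loci around Slc25a3 or Acsl1 was higher in the low libraries by an amount near the counts that these genes lacked. Summed with the locus just below and just above, Slc25a3 still differed by -3.14 on the log2 scale in Prm2+/Δc against WT and Acsl1 by -1.10 in Prm2-/Δc against WT. The sums shrank the differences of Slc30a9 from WT to -0.74 in Prm2-/Δc and -0.30 in Prm2+/Δc. The added loci 16747 and 16749 had means of 30.9 and 91.2 normalized counts in WT, of 112 and 91.8 in Prm2+/Δc and of 62.3 and 121 in Prm2-/Δc. Adding loci that lack the step shrinks a fold change by itself, and so does a higher level of an added locus in the mutants. The share of each in these sums was not tested. Whether these loci hold reads of Slc30a9 was not tested, and the positions of the numbered loci were not at hand. Of the 50-base words in the last 500 bases of its transcripts, Slc25a3 shares 61 of 1813 (3.36%) with the processed pseudogene Gm13904, whose Ensembl row is listed at 0 in every library; an unnamed locus could still hold its reads. Acsl1 and Slc30a9 share 0 of 3777 and 0 of 2829 such words with transcripts of other genes.

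**Figure D3:**
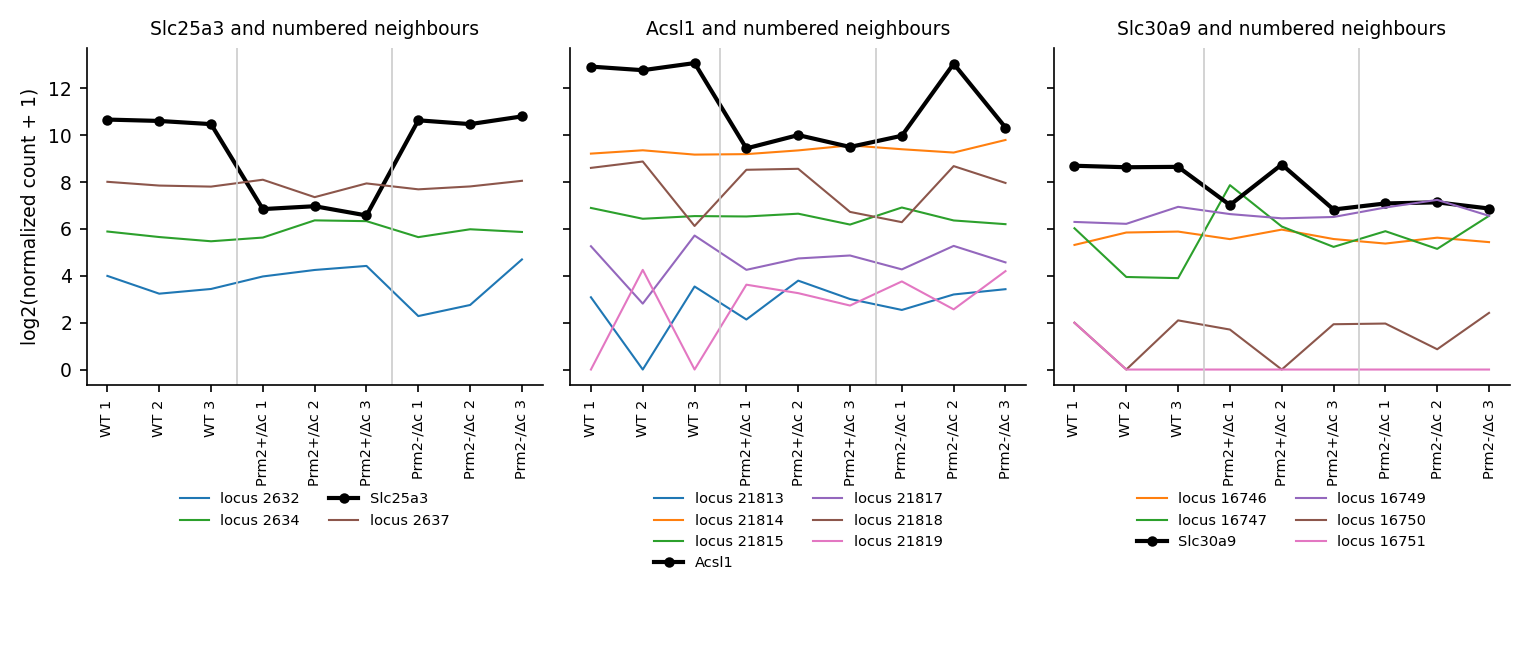
Level (log2 of the normalized count + 1) of each gene (black) and of the 3 loci numbered below and above it in the 9 libraries; loci with 0 counts throughout are left out, and lines only join the points of 1 locus. The steps of Slc25a3, Acsl1 and Slc30a9 are not seen in the adjacent loci.

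Few other genes of the same pathways could be read. A row with a name was found for 6 of 47 mitochondrial carriers of the Slc25 family, 6 of 23 genes of fatty acid activation and uptake, 1 of 29 of mitochondrial fatty acid oxidation, 5 of 24 zinc transporters and 0 of 19 genes of ATP synthase and nucleotide exchange. These lists are thus largely unnamed, and no change of a pathway can be read from them. Of the named rows, 3, 2, 1 and 3 were tested in Prm2+/Δc against WT, beside the background of 13 loci called in either direction (0.073%). Slc25a3 and Acsl1 were the 2 called, and no named row of these lists was called in Prm2-/Δc against WT. The medians were -0.23, -1.55, -2.40 and -0.85 on the log2 scale in Prm2+/Δc, each over at most 3 genes that include those chosen for their difference.

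Slc25a12, a carrier of aspartate and glutamate, had 61.4 ± 23 normalized counts for WT, 52.7 ± 14.7 for Prm2+/Δc and 57.5 ± 3.32 for Prm2-/Δc (SD, n = 3). Its log2 fold changes against WT, -0.23 ± 0.36 and -0.09 ± 0.32 (SE), were within their errors. Slc25a22, a glutamate carrier, and Slc25a27 had means of at most 15.7 normalized counts, and the log2 fold changes for which they passed the count filter, 0.91 ± 0.72 in Prm2+/Δc and -0.91 ± 1.57 in Prm2-/Δc, were not called. Slc27a6, a fatty acid transporter, had 11.5 ± 5.56, 12.8 ± 2.26 and 10.8 ± 8.36. None of these rows shows the step that Slc25a3 or Acsl1 has. All are Ensembl rows, which together hold 0.391% of the counts. Other reads of these genes could lie in unnamed loci, so the rows need not give the level of the gene.

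Acadsb, a dehydrogenase for short branched acyl-CoA in the mitochondrial matrix, is itself on the study's lists. It had 265, 177 and 81.2 normalized counts in WT libraries and 37.3, 22.3 and 39.5 in Prm2+/Δc, while Prm2-/Δc had 56, 61.6 and 187. All Prm2+/Δc libraries were below all others, but the log2 fold change of Acadsb against WT, -2.40 ± 0.49 (SE), was not called. Of the loci tested, 4.61% had all 3 Prm2+/Δc libraries below all 3 WT libraries. Slc39a7, a zinc transporter of the endoplasmic reticulum and Golgi that is also on the lists, had 500, 487 and 793 in WT and 230, 222 and 325 in Prm2+/Δc, while Prm2-/Δc had 296, 735 and 194. As for Acsl1, its Prm2-/Δc library 2 lay in the WT range and its other two lay in or near the Prm2+/Δc range. The Ensembl row of Slc39a14, a zinc importer of the cell surface, had 14.4 ± 4.18, 25.5 ± 1.8 and 20.8 ± 5.95 in WT, Prm2+/Δc and Prm2-/Δc. An unnamed locus could hold other reads of this gene. Slc39a14 was not called in either contrast, nor were Acadsb and Slc39a7.

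The loci most like each gene were sought by the root mean square difference, over the 9 libraries, of log2(normalized count + 1) after subtracting each locus' mean. For Slc25a3, the 3 nearest of 12542 loci were Mgst1, which encodes a membrane-bound glutathione transferase (1.04), MSTRG.12912 (1.07) and Stat5a, a transcription factor of cytokine signalling (1.11), where a flat line would score 1.80. Mgst1 had 198, 169 and 102 normalized counts across WT and 7.92, 2.57 and 6.34 in Prm2+/Δc, and in Prm2-/Δc it had 91.8, 126 and 18.5. The nearest mirror image was 4930469G21Rik (0.85), with 3671, 4048 and 3768 in Prm2+/Δc against 405, 434 and 481 in WT. Its Prm2-/Δc libraries had 562, 611 and 1725. The other two mirror images were Gm14036 (1.02) and Fhdc1 (1.04).

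Acsl1 had closer neighbours. Psmd4, a subunit of the proteasome that binds ubiquitin chains, differed by 0.63, where a flat line would score 1.57. It had 4321, 5068 and 5096 normalized counts across WT and 1250, 929 and 1023 in Prm2+/Δc, while Prm2-/Δc had 1426, 5957 and 664. Psmd4 was thus low in the same 5 libraries as Acsl1. Lemd1 followed (0.84), with 397, 1418 and 461 in Prm2-/Δc, and then M1ap, a gene of male meiosis (0.91), with 157, 527 and 394. The nearest mirror image was Kxd1 (0.69), which lies on chromosome 8 as Acsl1 does. It had 2755, 2481 and 2503 in WT and 10112, 11433 and 11385 in Prm2+/Δc, while Prm2-/Δc had 10919, 2052 and 4166. The others were 4930469G21Rik (0.88) and MSTRG.23521 (0.90).

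For Slc30a9, the 3 nearest were unnamed loci of low level, MSTRG.1320, MSTRG.14673 and MSTRG.4360 (0.48, 0.48 and 0.49, where a flat line would score 0.85). Its nearest mirror image was Wfdc3, a gene of a family of protease inhibitors (0.33), with 245, 359 and 144 normalized counts across WT and 722, 209 and 786 in Prm2+/Δc, while Prm2-/Δc had 798, 702 and 966. Prm2+/Δc library 2, the only mutant library in which Slc30a9 was high, was the only one in which Wfdc3 was in the WT range. Tmem57 (0.45) had 622, 600 and 729 in WT and 768, 585 and 1358 in Prm2+/Δc, while Prm2-/Δc had 1578, 1549 and 1609, and MSTRG.12485 scored 0.44. These likenesses describe 9 libraries and have no test. The named loci among the nearest and mirrored profiles have names only because they are on the study's lists. They too were chosen for a difference between genotypes, which sets part of the likeness. With a minimum mean of 10 in place of 50 normalized counts, 0 of the 3 loci nearest to Slc25a3 or to Slc30a9 and 3 of the 3 nearest to Acsl1 stayed among the nearest.

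**Figure D4:**
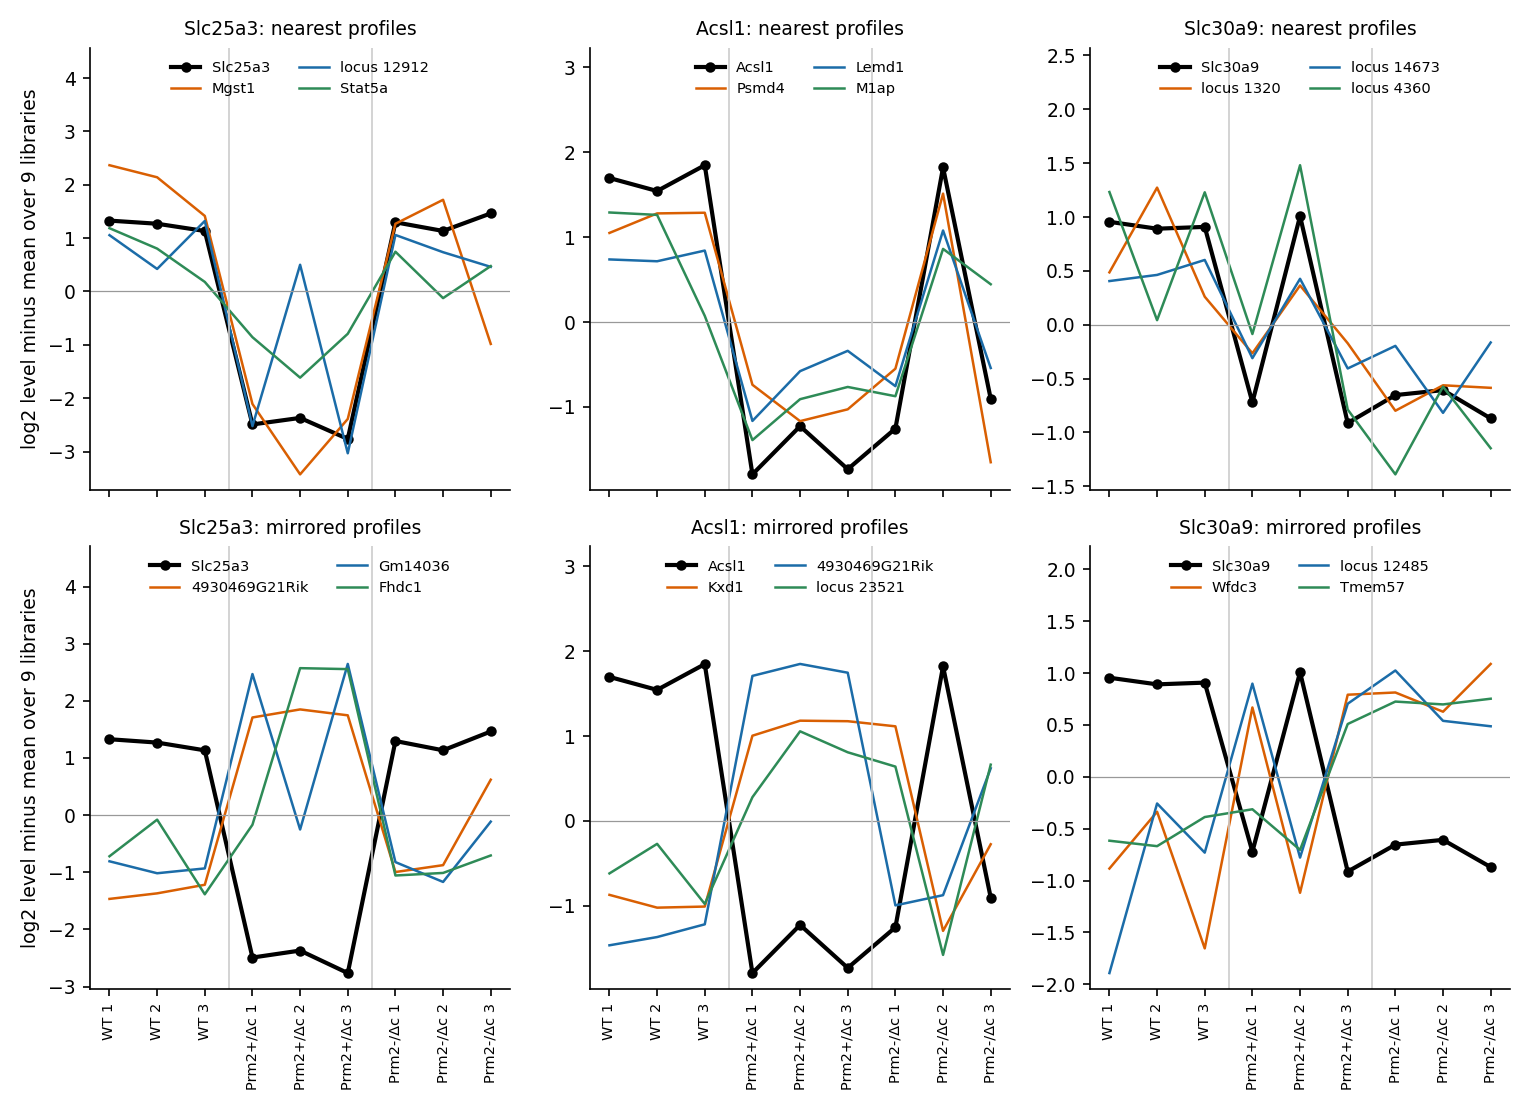
Centred log2(normalized count + 1) of each gene (black) with the 3 nearest profiles (top) and the 3 nearest mirrored profiles (bottom) over 9 libraries; lines only join the points of 1 locus. Psmd4 is low in the 5 libraries where Acsl1 is low, and Wfdc3 runs opposite to Slc30a9 at a difference of 0.33.

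Markers of cell types also differed between libraries. Among the 5 named germ cell genes, all chosen by the study's lists, Cylc1, a gene of the sperm head, had 4380, 4073 and 4113 normalized counts across WT and 765, 693 and 711 in Prm2+/Δc, while Prm2-/Δc had 857, 945 and 5943. Crem, a transcription factor of spermatids, had 446, 440 and 1084 in WT and 2505, 2822 and 2389 in Prm2+/Δc, while Prm2-/Δc had 311, 375 and 2048. Adam30 had 506 to 627 in WT, 468 to 592 in Prm2+/Δc and 40.6 to 67.4 in Prm2-/Δc. M1ap had 304 to 709 in WT, 110 to 170 in Prm2+/Δc and 157 to 527 in Prm2-/Δc. Tdrd1 had 128 to 166 in WT and reached 2221 in Prm2+/Δc library 1 and 2177 in Prm2-/Δc library 2. In the Prm2+/Δc libraries, where Slc25a3 and Acsl1 were low, Cylc1 and M1ap were below and Crem was above the WT range, and Adam30 and Tdrd1 overlapped it.

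Of the other cell types, Myl9 of smooth muscle and myoid cells was the 1 of 4 named. It was at 4.52 to 11.3 normalized counts in the 3 Prm2+/Δc libraries, but also at 6.56 in WT library 3 and 11.5 in Prm2-/Δc library 2, where Slc25a3 and Acsl1 were high. Hbb-bs, the 1 of 5 red blood cell genes named, had 381 to 578 in WT, 783 to 1415 in Prm2+/Δc and 567 to 1137 in Prm2-/Δc. Myl9 and Hbb-bs have names only because they are on the study's lists, so both were chosen for a difference between genotypes. Adgre1 of macrophages, 1 of 3, had at most 22.3 in its Ensembl row, which need not hold all its reads, and no Leydig cell gene of 5 was named. The part of cell makeup in the levels of Slc25a3, Acsl1 and Slc30a9 was not tested.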

How the data were processed

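Testis RNA of 9 mice was measured by QuantSeq 3′ mRNA sequencing with 50 bp reads. The authors mapped with HISAT2 2.1 to GRCm38 (Ensembl 89), assembled loci with StringTie 1.3.3 and deposited expected counts per locus from its preDE script, which rounds to whole numbers. All count columns were used. The study tested with DESeq2 1.16.1.

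Here, edgeR 4.0.16 (R 4.3.3, quasi-likelihood, TMM, filterByExpr, 2 groups a fit, no covariate) was fitted to all loci, with Benjamini-Hochberg adjustment. SEs are the log2 fold change over the square root of F. DESeq2 1.42.0 was an alternative. Scripts were tested on simulated data. Exact permutation tests used scipy 1.17.1. Groups came from the sample titles. Among 9 replicate pairs, chi-square per locus was 28.6 to 101, above sampling noise. The pairs with Prm2-/Δc library 3 had the highest values, 100 and 101, beside 44.3 for Prm2-/Δc libraries 1 and 2. Whether littermates were used is not given, so it is not known whether the mice of a group are independent, as the tests assume.

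The members and lists were chosen with earlier results of these data known. Named loci were the 3 genes, listed pathway and marker genes with a row, 3 loci on each side and 3 nearest or mirrored profiles. Proteins were not used here.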

Additional observations from a re-analysis of the deposited data

How the results depend on the processing

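Each of 9 contrasts (3 genes, 3 pairs of genotypes) was recomputed under 9 other settings, and all 81 values kept their direction. Summing with the loci just below and above moved Slc25a3 to -3.14 (Prm2+/Δc against WT) and 3.19 (Prm2-/Δc against Prm2+/Δc), and Slc30a9 to -0.74 (Prm2-/Δc against WT). The sum with an Ensembl row of the same gene gave no value, since there is none. Leaving out 1 mouse kept the direction of 52 of 54 values. The ranges were -0.032 to 0.14 for Slc25a3 and -2.76 to -0.68 for Acsl1 in Prm2-/Δc against WT, with lowest adjusted p of 0.984 and 0.0381 in edgeR's test, and -1.74 to -0.53 for Slc30a9 in Prm2+/Δc against WT. In Prm2-/Δc against Prm2+/Δc they were 0.49 to 2.58 for Acsl1 and -1.11 to 0.11 for Slc30a9. Each of these fits holds 2 mice in 1 group and 3 in the other. Same-numbered libraries had deviations from their group means that correlated with r between -0.265 and 0.066. With 3 mice a group such values cannot decide whether the numbers pair the mice, so pairing is unknown. A replicate block gave -1.89 for Acsl1 in Prm2-/Δc against WT and -1.15 for Slc30a9 in Prm2+/Δc against WT (adjusted p of at least 0.979, edgeR), changed no call on the 3 tested values, and left 1 locus called higher and 2 lower in Prm2+/Δc against WT, from 5 and 8. DESeq2 called 37 and 46 there, and 24 and 45 in Prm2-/Δc against WT (edgeR 0 and 1, with 565 loci at an unadjusted p under 0.05). One fit of all 9 libraries called 2 higher and 3 lower, and 2 and 5. Without 1 mouse the calls were 5 to 14 higher and 7 to 23 lower in Prm2+/Δc, and 0 to 5 and 0 to 17 in Prm2-/Δc. Of the 3 mirrored profiles, 2 of those of Slc25a3 stayed with a pseudocount of 5, and 1 each of those of Acsl1 and Slc30a9 with a minimum mean of 10 normalized counts. Each value of the 3 genes rests on 101 counts or more, while 3 mice a group cannot give an exact permutation p under 0.1.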
